A study of Mus musculus with 24 samples.

Results

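Cytosolic ribosomal protein genes were examined in pancreatic islets of NOD mice, each compared with a pool of control islets of the same age. The members were taken by name: every noncontrol probe whose gene name is Rpl, Rps or Rplp followed by a number, with or without letters after it, leaving out the S6 kinases. A probe was kept when it was well above background in a channel on at least 6 arrays, and the brightest kept probe stood for the gene. This gave 84 members of 18085 genes tested, and no member name was lost to the signal filter. The members had 137 probes, of which 133 were kept. Rpl39l and Rpl3l lay nearest to the limit, with 8 arrays each in the NOD channel, and the other 82 members were well above background in both channels on all 24 arrays. The name rule also took Rps19bp1, which binds a ribosomal protein and is not a subunit, and Rpl7l1, a paralog with a role in ribosome assembly. Rps3a and Rps4y2, as the files name them, are Rps3a1 and Rps4l in the current RefSeq table.

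NOD (NOD/LtJ) mice develop autoimmune diabetes spontaneously, and NOD.B10 (NOD.B10Sn-H2b/J) mice carry another H2 haplotype on the NOD background and stay free of diabetes. Islets were isolated by collagenase from single female NOD mice at 4 ages (10 days and 4, 12 and 20 weeks). Each age had 6 mice, and the labels name no treatment. On every 2-colour array the NOD mouse was labelled with Cy5, and Cy3 carried a pool from 6 female NOD.B10 mice of that age. Each pool counts as 1 control sample: the ratio at an age leaves out the spread among control animals and contains any dye effect of the probe, and a difference between ages contains any difference between their pools.

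Cytosolic ribosomes translate the mRNAs of the nuclear genome, including those of insulin and the other secreted hormones of the islet. The large subunit joins amino acids and holds the exit tunnel, the small subunit reads the mRNA, and the acidic stalk proteins Rplp0, Rplp1 and Rplp2 recruit elongation factors. The genes are expressed in every cell, and many of their mRNAs start with a C followed by a run of pyrimidines, the 5′ terminal oligopyrimidine tract, through which mTOR signalling controls their translation.

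RefSeq promoter windows were at hand for 63 of the members. The tract was looked for on the strand that reads as the mRNA. It was taken as a C followed by at least 4 more bases, each C or T, starting within 5 bases of an annotated start. It was found in 29 of those 63 members (46.0%) and in 21.2% of all 27025 genes in the table. The windows below are shown because the tract is the best known shared feature of these mRNAs. Each runs from 10 bases before the annotated start to 20 bases from it on, build GRCm38.p6, with the tract in capitals:
Rps6 (chr4:86857348-86857377, minus strand): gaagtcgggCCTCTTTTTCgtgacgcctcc
Rpl13a (chr7:45128726-45128755, minus strand): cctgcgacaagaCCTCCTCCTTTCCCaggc
Rpl15 (chr14:18270967-18270996, minus strand): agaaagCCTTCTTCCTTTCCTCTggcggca
Rpl35 (chr2:39005112-39005141, minus strand): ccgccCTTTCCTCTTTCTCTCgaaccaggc
Rpl39 (chrX:37085203-37085232, minus strand): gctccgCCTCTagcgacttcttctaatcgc
Rpl22l1 (chr3:28805498-28805527, plus strand): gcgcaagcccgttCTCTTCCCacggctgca
Rpl4 (chr9:64173377-64173406, plus strand): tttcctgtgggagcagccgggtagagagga
Rpl5 (chr5:107900518-107900547, plus strand): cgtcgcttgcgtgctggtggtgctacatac
Rpl36al (chr12:69184048-69184077, minus strand): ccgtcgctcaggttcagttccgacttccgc
Rpl4, Rpl5 and Rpl36al, which had the highest ratios of these at 10 days, had no such run starting within 5 bases of the annotated start. The window of Rpl36al holds one further downstream, cttcc, which the distance left out. Over the members with a window, the median log2(NOD/pool) after loess was -0.20 at 10 days for the 29 with the tract and 0.0012 for the 34 without it. The means at 10 days ran from -0.87 to 0.50 with the tract and from -0.63 to 1.47 without it. The windows shown thus leave out low members without a tract, the lowest of which was Rpl36a (-0.63). The median was 0.58 with and 0.66 without the tract at 4 weeks, 0.06 and 0.22 at 12 weeks, and 0.62 and 0.56 at 20 weeks. Annotated starts can be off by more than 5 bases, so no tract found says only that no such run starts that close to the annotated start.

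The array measured each member with probes of 60 bases. Probes of the members at both ends of the range are shown, 5′ to 3′, with the position that the files give on mm9:
Rpl4 (chr9:64022737-64022796, plus strand): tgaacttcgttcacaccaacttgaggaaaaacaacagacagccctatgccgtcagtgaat
Rps4y2 (chr6:148304018-148304077, plus strand): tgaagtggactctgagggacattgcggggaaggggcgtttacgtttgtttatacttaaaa
Ribosomal protein genes have many processed copies in the genome, and a probe cannot tell a copy of the same sequence from its parent gene. The files place the Rps27 probe on chromosome 9 and the Rps29 probe on chromosome 2, whereas the gene table has these genes on chromosomes 3 and 12.

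The members were among the brightest features of the arrays: 77 of 84 lay above the 90th percentile of mean intensity over all genes tested, with a median percentile of 99.05. No spot of a member was saturated. Ins1, Ins2, Gcg and Sst, which define islet endocrine cells, were well above background on all 24 arrays. The share of probes well above background ranged from 42.3% to 64.6% in the NOD channel and from 39.4% to 60.4% in the pool channel, with 20 weeks replicates 5 and 6 lowest in the NOD channel at 42.3% and 47.7%.

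The members' signal can be read in each channel before any scaling between the dyes. In the NOD channel the members held 11.8% ± 1.66 (SD, n = 6) of the summed signal at 10 days and 11.15% ± 0.317 at 4 weeks. At 12 weeks they held 11.9% ± 0.761 and at 20 weeks 11.8% ± 1.70. In the pool channel they held 13.0% ± 0.699 at 10 days and 8.43% ± 0.422 at 4 weeks. The pool shares at 12 and 20 weeks were 10.8% ± 0.652 and 8.56% ± 0.968, where the SD is over the 6 arrays that carried the same pool. The NOD shares thus lay near each other at the 4 ages, and the pool shares were lower at 4 and 20 weeks than at 10 days and 12 weeks. Within an array, the NOD share exceeded the pool share in 1 of 6 arrays at 10 days and in 6 of 6 at each later age. The mean log2 ratio of the shares was -0.16 ± 0.18 (SD, n = 6) in the 10-day mice, 0.40 ± 0.10 in the 4-week, 0.14 ± 0.11 in the 12-week and 0.45 ± 0.06 in the 20-week mice.

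**Figure D1:**
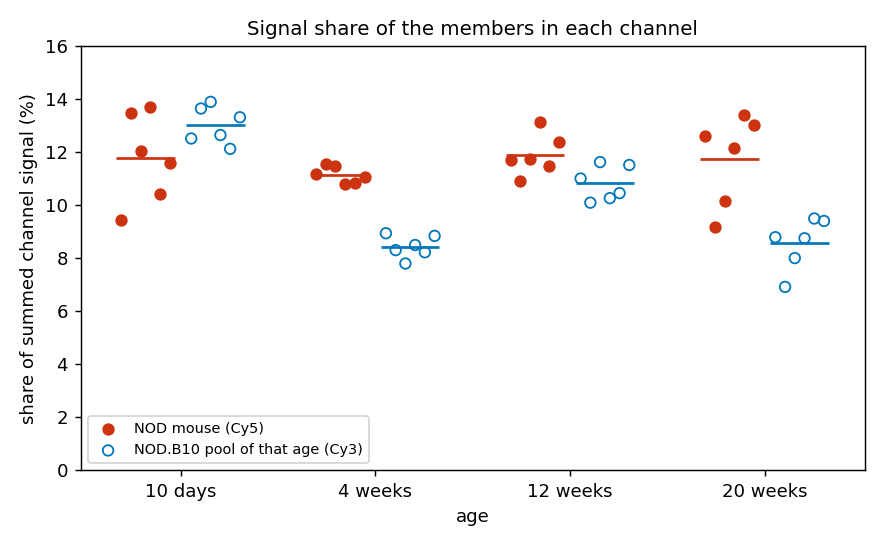
Share of the summed background-corrected signal of a channel held by the 84 members, in percent, by age; filled points are the 6 NOD mice, open points are the 6 measurements of the NOD.B10 pool of that age, and lines are their means. The NOD means stay between 11.15% and 11.9%, while the pool means are 13.0%, 8.43%, 10.8% and 8.56%.

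The 2 scalings of the ratio gave opposite directions for the family at 10 days, at 20 weeks and between ages. Both are therefore given for the members called higher or lower at each age and between ages. Other counts are after loess only unless median centring is named, and need not hold under both. After loess, which removes any trend of the ratio with brightness within an array, the median member was at -0.06, 0.61, 0.08 and 0.58 (log2 NOD/pool) in the 10-day, 4-week, 12-week and 20-week mice, whereas after median centring, which shifts each array by 1 constant, it was at 0.64, 0.35, 1.19 and -0.02. The median over all genes tested was 0.01, -0.01, 0.03 and 0.00 at these ages after loess and 0.38, -0.15, 0.50 and -0.21 after median centring. The median of the other bright genes was 0.01, -0.03, -0.07 and -0.05 after loess and 0.76, -0.34, 1.05 and -0.68 after median centring. A comparison that changed little between the scalings sets the members against the 1732 other genes of the brightest 10% on the same array. The median member minus the median bright gene was 0.64 ± 0.10 (SD, n = 6) at 4 weeks and 0.64 ± 0.21 at 20 weeks after loess, and 0.71 ± 0.15 and 0.63 ± 0.22 after median centring. It was above 0 in 6 of 6 mice at both ages and under both scalings.

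At 10 days this difference was -0.11 ± 0.22 after loess and -0.14 ± 0.32 after median centring, with 2 of 6 mice above 0 under each. At 12 weeks it was 0.18 ± 0.15 and 0.19 ± 0.15, with 5 of 6 mice above 0. After loess the mice ranged from -0.44 to 0.18 (10 days), from 0.53 to 0.81 (4 weeks), from -0.05 to 0.39 (12 weeks) and from 0.41 to 0.97 (20 weeks). The mice of 4 and of 20 weeks therefore did not overlap those of 10 days or 12 weeks. At 4 weeks 74 members stood above the median bright gene in every mouse after loess and 77 after median centring, where 28.6% and 28.2% of the bright genes themselves did so. At 20 weeks 71 and 68 members did so, against 19.9% and 20.3% of the bright genes. At 10 days the numbers were 9 and 9 (24.2% and 23.8% of bright genes), and at 12 weeks 34 and 33 (26.2% and 25.8%).

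**Figure D2:**
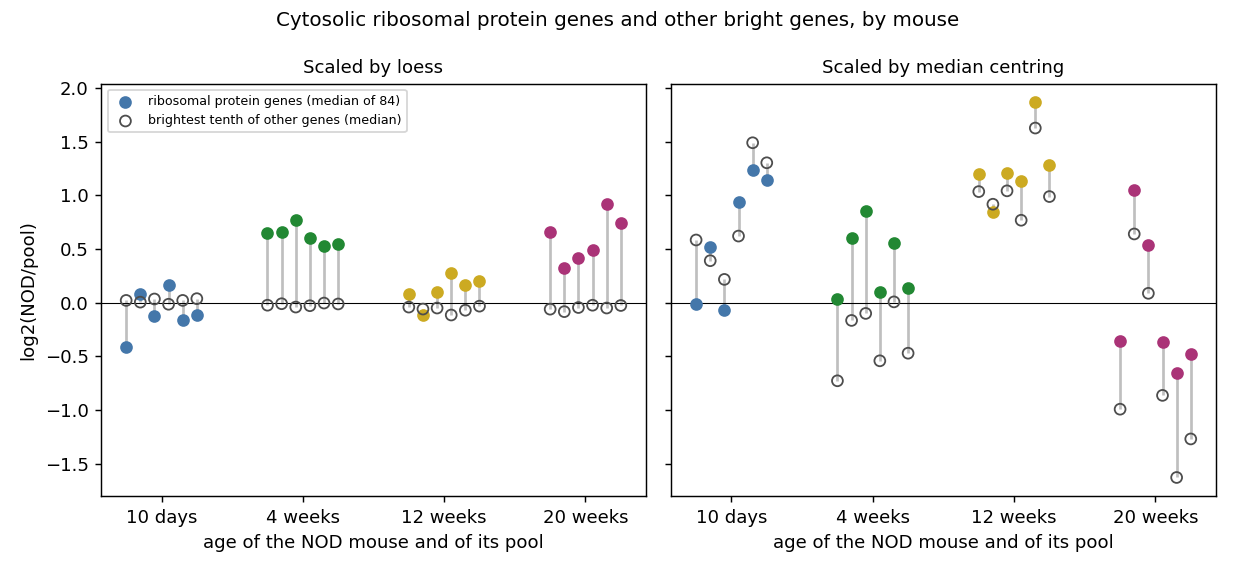
Median log2(NOD/pool) of the 84 members (filled) and of the brightest 10% of the other genes (open) in each of the 24 mice, joined by a line within a mouse, after loess (left) and after median centring (right). The members lie above the bright genes in all 6 mice at 4 weeks and at 20 weeks in both panels, while their sign against 0 at 20 weeks differs between the panels.

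Counts of single members followed the scaling. With limma, at a Benjamini-Hochberg adjusted p under 0.05 over all genes tested, 18 members were higher in NOD and 28 lower at 10 days after loess, where 27.2% and 23.9% of all genes were. After median centring 55 were higher and 1 lower (48.8% and 7.19% of all genes). At 4 weeks 74 were higher and 1 lower after loess (24.7% and 26.4% of all genes), and 25 and 1 after median centring (8.07% and 21.8%). At 12 weeks 33 were higher and 13 lower after loess (21.3% and 16.1%), and 80 and 0 after median centring (57.3% and 3.96%). The share of members called higher thus exceeded the share of all genes under both scalings at 4 and at 12 weeks. At 20 weeks 76 were higher and 2 lower after loess (23.9% and 25.1%), and 2 and 6 after median centring (8.51% and 33.9%).

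Few members reached a 2-fold difference. After loess 1 member was at least 2-fold higher at 10 days (1.61% of all genes), 6 were at 4 weeks (1.91%), and 0 were at 12 weeks (2.09%) or 20 weeks (3.87%). As for lower values, 0 members passed 2-fold at 10 days (2.36%), 4 weeks (0.879%) and 12 weeks (1.42%), and 1, Rps4y2, did at 20 weeks (1.23%). After loess 71 members were higher at both 4 and 20 weeks (8.54% of all genes) and 18 at all 4 ages (2.8%). A further 6 were lower at 10 days and 12 weeks and higher at 4 and 20 weeks after loess (0.144% of all genes). These were Rpl7a, Rpl36, Rplp0, Rps23, Rpl38 and Rpl37a. After median centring 0 members were called lower at 12 weeks, so none of these 6 kept the pattern. For Rplp0 and Rpl7a the sign turned at 10 days, 12 weeks and 20 weeks.

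The loess ratios of the members differed between ages, and median centring turned these contrasts. From 10 days to 4 weeks 74 members rose and 1 fell after loess (24% and 26.9% of all genes), with a median difference of 0.69, and after median centring 2 rose and 9 fell (9.23% and 54.4%) with a median of -0.26. From 4 to 12 weeks 0 rose and 61 fell (23.5% and 18%), median -0.50, against 73 and 1 (59.7% and 4.82%), median 0.90. From 12 to 20 weeks 47 rose and 1 fell (11.2% and 15.5%), median 0.42, against 2 and 81 (3.08% and 60.8%), median -1.31. From 10 days to 20 weeks 66 rose and 3 fell (26.2% and 27.7%), median 0.70, against 2 and 41 (9.22% and 56.1%), median -0.66. In either direction the loess contrasts called 75, 61, 48 and 69 members, where 50.9%, 41.5%, 26.8% and 53.9% of all genes were called. At least 2-fold rises after loess were called for 7 (5.15% of all genes), 0 (2.97%), 4 (2.01%) and 13 (7.73%) members in these contrasts, and at least 2-fold falls for 0 in each (3.85%, 3.07%, 0.404% and 4.8%). The limma F test over the 4 ages called 78 members after loess, where 76% of all genes were called. The mice of neighbouring ages did not overlap for 58 members between 10 days and 4 weeks (26.7% of all genes), for 52 between 4 and 12 weeks (25.3%) and for 20 between 12 and 20 weeks (12.3%); the mice of 10 days and 20 weeks did not overlap for 44 (26%).

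The members at the ends of these contrasts are named with their loess differences, and with those after median centring where these turned. From 10 days to 4 weeks the highest loess differences included those of Rpl36a (1.54) and Rpl32 (1.13), and the lowest those of Rps4y2 (-0.65), Rpl4 (-0.25) and Rpl36al (-0.12). From 4 to 12 weeks Rpl36a (-0.96), Rplp1 (-0.94) and Rpl32 (-0.92) were lowest after loess, and median centring gave 0.46, 0.45 and 0.47 for these 3. Rps4y2 (0.34) and Rpl39l (0.20) were highest, neither of them called. From 12 to 20 weeks Rpl39 (1.26), Rps7 (1.10) and Rps23 (1.05) were highest after loess, and median centring gave -0.55, -0.77 and -0.83. Rps4y2 (-0.66), Rpl36al (-0.30) and Rpl21 (-0.21) were lowest, and only the first of these was called.

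The 4 arrays of a slide share its processing, and 2 slides held 2 ages. On the slide with 2 mice of 10 days and 2 of 4 weeks, the median member was 0.75 higher at 4 weeks after loess, with 80 of 84 members above 0. On the slide with 2 mice of 12 weeks and 2 of 20 weeks it was 0.30 higher at 20 weeks, with 62 members above 0. With slide as a fixed block, 59 members rose from 10 days to 4 weeks, against 12.6% of all genes, and 10 from 12 to 20 weeks, against 3.13%.

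The loess ratios of most members rose and fell with the median member. Across the 24 arrays, the correlation of a member's loess ratio with the median member had a median of 0.893, and 75 members were above 0.5. With the mean of each age removed, the median was 0.793 and 73 members were above 0.5. These points share arrays, pools and scaling, so the correlations are descriptions. Each member is also part of that median, and other genes above 0.5 were not counted. The counts therefore do not set the family apart from other genes. Members lowest in this measure were Rps4y2 (-0.84), Rpl36al (-0.14) and Rpl4 (-0.01). Among genes outside the family, the highest correlations with the median member over the 24 arrays were those of Rack1 (0.976), which encodes a protein bound to the small subunit, and Nme2 (0.974), a nucleoside diphosphate kinase; these were picked after their values were seen.

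Differences among members within a mouse are given below as a member's log2(NOD/pool) minus that of the median member of the same mouse. Of 336 such means, 1 for each member and age, 13 moved by over 0.15 between loess and median centring, those of Rpl39l, Rpl3l, Rpl21, Rpl31 and Rpl7l1, and 20 changed sign. The median move was 0.03. The order of the members was alike at some ages: the correlation of member means after loess was 0.835 between 10 days and 12 weeks and 0.722 between 4 and 20 weeks, but 0.262 between 10 days and 20 weeks. Member means had a rank correlation with probe intensity of -0.28, -0.09, -0.26 and 0.09 at the 4 ages and with probe GC content of 0.29, 0.15, 0.22 and -0.16.

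**Figure D3:**
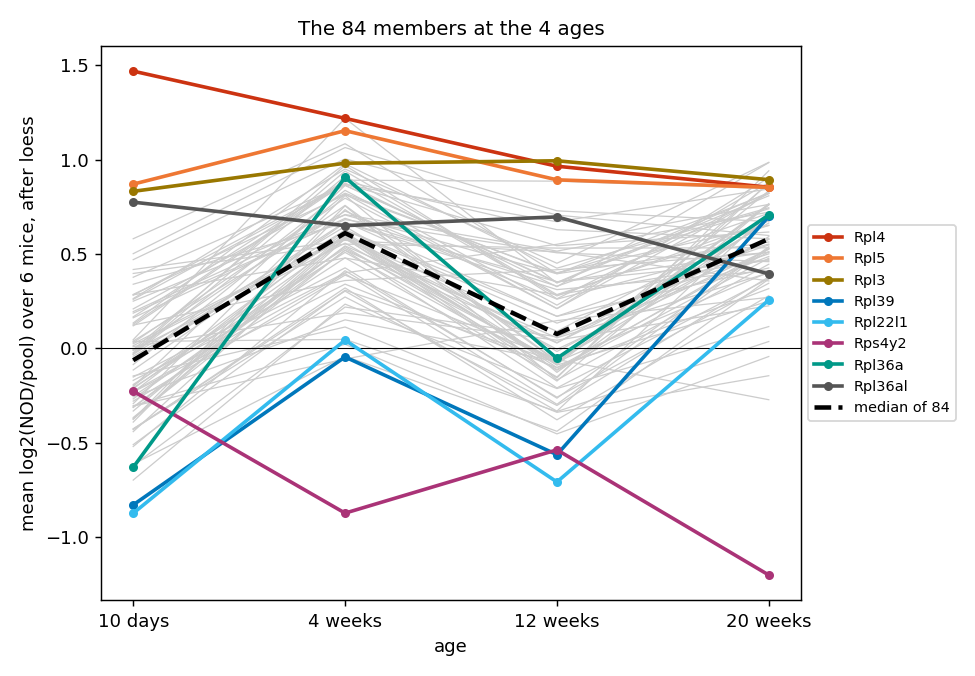
Mean log2(NOD/pool) of each of the 84 members over 6 mice after loess, by age, with 8 members coloured and the median member dashed. The median member runs from -0.06 to 0.61, 0.08 and 0.58 after loess, and from 0.64 to 0.35, 1.19 and -0.02 after median centring; Rpl4 starts highest, and Rps4y2 moves against the rest.

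Genes of the large-subunit proteins Rpl3, Rpl4 and Rpl5 had the highest means of the family at 10 days and 12 weeks after loess. Rpl4, whose protein lines the exit tunnel, had log2(NOD/pool) from 0.96 to 2.13 at 10 days (median 1.42) and from 0.96 to 1.45 at 4 weeks (median 1.25), then from 0.61 to 1.25 at 12 (median 0.98) and from 0.46 to 1.46 at 20 weeks (median 0.71). All 24 mice were thus above 0 after loess. The limma adjusted p was 2.2e-09 at 10 days (mean 1.47 ± 0.38, SD, n = 6) and 6.01e-06 at 20 weeks (mean 0.85 ± 0.41), and median centring gave 0.24 at 20 weeks with an adjusted p of 0.307. Relative to the median member, Rpl4 was at 1.56 ± 0.20 at 10 days and 0.59 ± 0.13, 0.85 ± 0.21 and 0.26 ± 0.24 at 4, 12 and 20 weeks after loess, and at 1.61, 0.51, 0.82 and 0.28 after median centring. Its fall from 10 days to 20 weeks was 0.62 on the log2 scale after loess, with an SE of 0.18 and an adjusted p of 0.00503 in limma, against -1.99 after median centring, and the mice of these ages overlapped.

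Rpl5, which carries the 5S rRNA and binds Mdm2, ranged from 0.38 to 1.08 at 10 days and from 0.90 to 1.33 at 4 weeks, then from 0.57 to 1.07 at 12 and from 0.56 to 1.17 at 20 weeks. Rpl3, a core protein near the peptidyl transferase centre, ranged from 0.35 to 1.35, from 0.95 to 1.07, from 0.84 to 1.13 and from 0.74 to 1.14. Both were above 0 in all 24 mice after loess, and above the median member in all 24 mice under both scalings. For Rpl5 this holds for the brightest probe only. Its dimmer second probe had means of -0.13, 1.10, 0.15 and 0.87 at the 4 ages after loess. The F test over ages after loess gave an adjusted p of 0.0787 for Rpl5 and 0.508 for Rpl3. Rpl19, Rpl41, Rpl7l1 and Rpl8 were the other members it did not call. Rpl11, the partner of Rpl5 on the 5S rRNA, stood close to the median member: its means were 0.59 at 4 weeks and 0.52 at 20 weeks after loess, and -0.17 at 20 weeks after median centring.

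Rpl39 and Rpl22l1 stood at the bottom at 10 days. Rpl39, a small protein of the exit tunnel, ranged from -1.14 to -0.62 at 10 days and from -0.18 to 0.14 at 4 weeks, then from -0.84 to -0.21 at 12 and from 0.48 to 0.86 at 20 weeks. The 20-week mice lay above all others. After loess it was lower at 10 days (mean -0.83, adjusted p = 3.79e-09) and 12 weeks (-0.56, adjusted p = 2.39e-06) and higher at 20 weeks (0.70, adjusted p = 7.36e-08), and median centring turned the 12-week value to 0.59 and left -0.11 at 10 days (adjusted p = 0.673) and 0.04 at 20 weeks (adjusted p = 0.892). Relative to the median member it was at -0.74 ± 0.06, -0.67 ± 0.14 and -0.68 ± 0.19 at the first 3 ages, below 0 in all 18 mice, and at 0.11 ± 0.21 at 20 weeks, above 0 in 4 of 6 mice. Median centring gave -0.73, -0.72, -0.66 and 0.09. The loess ratio rose by 1.53 from 10 days to 20 weeks (SE 0.10, adjusted p = 3.38e-10, limma) and by 1.26 from 12 to 20 weeks (adjusted p = 1.08e-07), where median centring gave 0.15 (adjusted p = 0.667) and -0.55.

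Rpl39l, the paralog of Rpl39 known from the testis, lay at the 4.01 percentile of intensity, and its ratio after loess was between -0.31 and 0.27 at the 4 ages. Rpl3l, the striated muscle paralog of Rpl3, lay at the 2.41 percentile and was well above background in 8 NOD channels and 0 pool channels. For both, the value relative to the family changed with the scaling, from 0.03 to -1.25 for Rpl39l at 12 weeks and from -0.07 to -1.33 for Rpl3l. Rpl22l1, a paralog of Rpl22, ranged from -1.22 to -0.58 at 10 days and from -0.25 to 0.37 at 4 weeks, then from -0.94 to -0.40 at 12 and from -0.03 to 0.71 at 20 weeks. It lay below the median member in all 24 mice under both scalings, at -0.78 ± 0.09 at 10 days and -0.33 ± 0.17 at 20 weeks after loess. Rpl22 lay above the median member in all 24 mice, at 0.21 ± 0.12 at 10 days and 0.39 ± 0.17 at 20 weeks after loess and at 0.21 and 0.37 after median centring. Its own ratio at 20 weeks ranged from 0.78 to 1.12 after loess (mean 0.98, adjusted p = 7.86e-11, limma), and median centring gave 0.33 (adjusted p = 0.254). These values are those of the brightest Rpl22 probe. The dimmer second probe had means of 0.44, 0.38, 0.18 and 0.18 at the 4 ages after loess. The median member was at 0.61 at 4 weeks and 0.58 at 20 weeks. Rpl22l1 after median centring was at 0.44 at 12 weeks and -0.38 at 20 weeks.

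**Figure D4:**
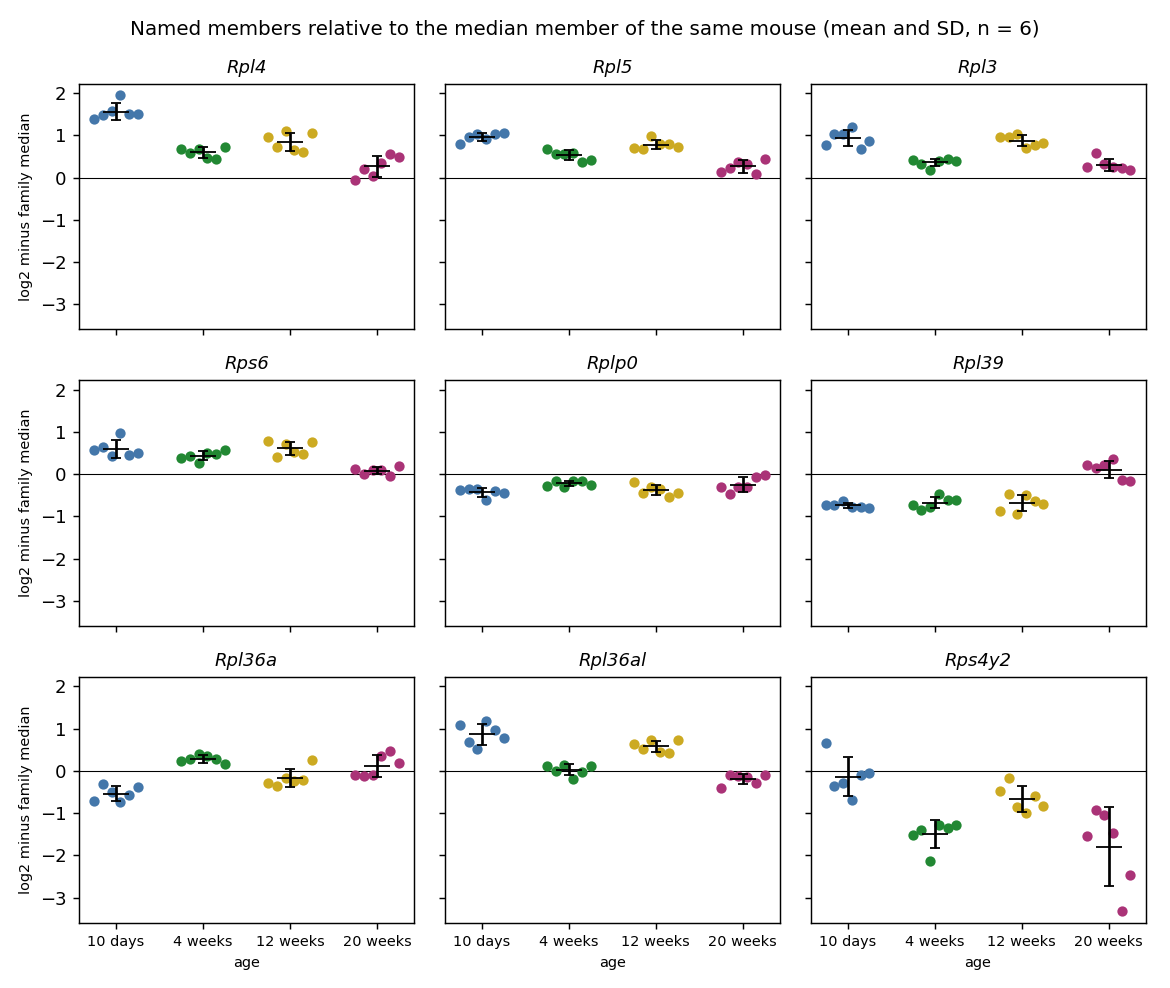
Log2(NOD/pool) of 9 members minus that of the median member of the same mouse, after loess, by age; points are mice, and bars are the mean and SD of 6. Rpl4 falls from 1.56 at 10 days to 0.26 at 20 weeks, Rpl39 goes from -0.74 to 0.11, and Rps4y2 from -0.13 to -1.79.

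Rpl36a and Rpl36al encode nearly the same large-subunit protein, and their ratios differed by age. Rpl36a ranged from -1.14 to -0.22 at 10 days and from 0.70 to 1.17 at 4 weeks, then from -0.46 to 0.46 at 12 and from 0.19 to 1.40 at 20 weeks. Its loess ratio rose by 1.54 from 10 days to 4 weeks (SE 0.18, adjusted p = 5.05e-07, limma; 0.57 and 0.0801 after median centring) and was below 0 at 10 days only after loess, with a mean of 0.08 after median centring. Rpl36al ranged from 0.39 to 1.34 at 10 days and from 0.40 to 0.91 at 4 weeks, then from 0.42 to 0.94 at 12 and from 0.22 to 0.63 at 20 weeks, with a mean of -0.22 at 20 weeks after median centring. Relative to the median member Rpl36a was at -0.54 ± 0.18 at 10 days and 0.28 ± 0.08 at 4 weeks after loess, and at -0.55 and 0.27 after median centring. Rpl36al was at 0.87 ± 0.25 and 0.03 ± 0.13 after loess, and at 0.91 and -0.04 after median centring. All 6 mice of 10 days had Rpl36al above and Rpl36a below the median member. This rests on the brightest Rpl36a probe. The second probe, which overlaps it, had loess means of -0.55 at 10 days and 0.88 at 4 weeks. The third, at another site, had 0.09 and 0.46.

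Rps4y2 lay below the median member in all mice of 4, 12 and 20 weeks under both scalings. It is the mouse paralog of Rps4x, and the files tie its probe to a RefSeq record of a noncoding RNA. Its loess ratio ranged from -0.51 to 0.24 at 10 days and from -1.37 to -0.68 at 4 weeks, then from -0.76 to -0.27 at 12 and from -2.41 to -0.60 at 20 weeks. At 20 weeks the lowest mice were replicates 5 and 6, at -2.41 and -1.72, and the other 4 lay between -0.97 and -0.60. After loess it was lower at 4 weeks (mean -0.87, adjusted p = 0.000123), at 12 weeks (-0.54, adjusted p = 0.011) and at 20 weeks (-1.20, adjusted p = 2.11e-06) in limma, and the 12-week mean was 0.56 after median centring. Relative to the median member it was at -0.13 ± 0.45, -1.50 ± 0.33, -0.66 ± 0.31 and -1.79 ± 0.93 after loess and at -0.09, -1.59, -0.70 and -1.75 after median centring. Rps4x, whose product is the common form of this small-subunit protein, had means of -0.03, 0.84, 0.23 and 0.88 after loess, and of 0.63 at 4 weeks and 0.20 at 20 weeks after median centring.

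The other paralogous pairs are given by their means. Rps27 had means of -0.26, 0.15, -0.07 and 0.77 after loess, with 0.44 at 10 days after median centring, and Rps27l had -0.33, 0.61, -0.10 and 0.32. Rpl7 had means of 0.65 at 4 weeks and 0.58 at 20 weeks after loess, with -0.10 at 20 weeks after median centring, and Rpl7l1 had 0.48 and 0.47 after loess. Rpl26 had means of 0.69 and 0.72, and Rpl10 of 0.59 and 0.25, at these ages after loess. Rps19bp1, which is not a subunit, had means of -0.15, 0.11, -0.34 and -0.15 after loess and of 0.73 at 12 weeks after median centring, and was called at 12 weeks.

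The 3 stalk proteins, which work as 1 complex, are given one by one. Rplp0 ranged from -0.79 to -0.27 at 10 days and from 0.30 to 0.50 at 4 weeks, then from -0.57 to -0.06 at 12 and from -0.14 to 0.85 at 20 weeks. After loess its means were -0.52, 0.41, -0.26 and 0.34, each past an adjusted p of 0.05, and median centring turned the means of 10 days, 12 weeks and 20 weeks to 0.16, 0.93 and -0.35. In all 24 mice Rplp0 lay below the median member under both scalings. Its 3 probes disagreed at 12 weeks, where the brightest had a mean of -0.26 and the next 0.36, both called.

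Rplp1 had means of -0.29, 0.81, -0.13 and 0.69 at the 4 ages after loess and lay above the median member in 6 of 6 mice at 4 weeks and in 0 of 6 at 10 days. After median centring its means were 0.38, 0.63, 1.07 and -0.01. Rplp2 had means of -0.62, 0.22, 0.06 and 0.49 after loess and of 0.06, 0.03, 1.26 and -0.21 after median centring. The scanner's own ratio put Rplp2 at -0.18 at 4 weeks.

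Small-subunit members centred near the large-subunit ones at 4 and 20 weeks after loess. After loess 26 of 30 small-subunit members were higher at 4 weeks and 28 at 20 weeks, with medians of 0.64 and 0.70, and 41 and 40 of 43 large-subunit members were, with medians of 0.65 and 0.58. Of all genes, 24.7% and 23.9% were higher at these ages. The small-subunit and large-subunit medians were -0.18 and -0.01 at 10 days and 0.03 and 0.21 at 12 weeks. Rps6, the substrate of the S6 kinases, ranged from 0.15 to 1.15 at 10 days and from 1.01 to 1.12 at 4 weeks, then from 0.30 to 0.96 at 12 and from 0.33 to 0.93 at 20 weeks. Relative to the median member it was at 0.60 ± 0.21, 0.44 ± 0.10, 0.61 ± 0.16 and 0.08 ± 0.08 after loess, and at 0.62, 0.40, 0.62 and 0.08 after median centring. Rps2 was low at 10 days, from -1.06 to -0.53, and lay below the median member in all 24 mice under both scalings. Its second probe, less bright, had loess means of -0.10, 0.43, 0.26 and 0.17 at the 4 ages. Rps27a, made as a fusion with ubiquitin, had means of 0.59 at 4 weeks and 0.76 at 20 weeks after loess. Rps3, also an endonuclease in DNA repair, had means of 0.53 and 0.59, and of -0.10 at 20 weeks after median centring. Rps7 had the highest mean of the small-subunit members at 20 weeks (0.94, range 0.58 to 1.19), and relative to the median member it was above 0 in 0 of 6 mice at 10 days and in 6 of 6 at 20 weeks under both scalings. Its loess difference from 10 days to 20 weeks was 1.31, and -0.07 after median centring.

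Genes mutated in human Diamond-Blackfan anaemia held different places within the family. Rps19 ranged from 0.69 to 1.00 at 4 weeks and from 0.68 to 1.11 at 20 weeks after loess, and lay above the median member in all 12 of these mice. Rpl35a lay above the median member in 0 of 6 mice at 4 weeks and in 6 of 6 at 20 weeks under both scalings. Rps24 had loess means of 0.52 at 4 weeks and 0.66 at 20 weeks, and its dimmer probes disagreed with the brightest.

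Several members serve as reference genes in expression work, and 5 of these are given here. Rpl13a ranged from 0.15 to 0.85 at 10 days and from 0.76 to 0.93 at 4 weeks, then from 0.33 to 0.85 at 12 and from 0.78 to 0.94 at 20 weeks, all above 0. After median centring its means at the 4 ages were 1.11, 0.60, 1.82 and 0.19. Rpl19 had means of 0.40 ± 0.09, 0.55 ± 0.08, 0.53 ± 0.13 and 0.53 ± 0.11 (SD) after loess, but of 1.10, 0.32, 1.70 and -0.14 after median centring, so its small spread between ages after loess was not kept. Rpl32 had means of -0.38, 0.76, -0.17 and 0.45 after loess and of 0.31, 0.55, 1.02 and -0.24 after median centring. Rps18 had means of -0.01, 0.76, -0.07 and 0.76 after loess, called at 4 and 20 weeks, and of 0.67, 0.58, 1.13 and 0.06 after median centring, called at all ages but 20 weeks (adjusted p = 0.82 in limma). Rpl13 had means of -0.21, 0.51, -0.11 and 0.53 after loess, called at 4 and 20 weeks, and of 0.49, 0.29, 1.07 and -0.15 after median centring, called at 10 days and 12 weeks.

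The strains differ in the H2 haplotype on chromosome 17, where the files place 8 members: Rpl10a, Rpl36, Rpl3l, Rpl7l1, Rps10, Rps18, Rps2 and Rps28. At 4 weeks their means after loess ran from 0.19 for Rpl3l to 0.97 for Rpl10a, and at 10 days from -0.70 for Rps2 to 0.28 for Rpl7l1. The whole family, which includes these 8, ran from -0.87 to 1.22 and from -0.87 to 1.47. A part cannot lie outside its whole, so these ranges decide nothing about the haplotype, whose effect was not tested.

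Where a gene had more than 1 kept probe, the probes did not always point one way. Of 40 such members, the brightest 2 probes had the same sign in 21, 35, 20 and 34 at the 4 ages in order after loess. Probes called in opposite directions were found for Rpl21, Rpl7a, Rps12 and Rps24 at 10 days, for Rpl23, Rpl7a, Rplp0, Rps19bp1 and Rps4x at 12 weeks, and for Rpl21, Rps24 and Rps4x at 20 weeks. The second probes of Rpl21 and Rps4x were dim, with mean log2 intensities of 6.22 and 6.18, near that of Rpl39l (6.16). Their disagreement with the brightest probe therefore says little about these genes. Rpl23, the highest member at 20 weeks with a mean of 0.99, had 0.18 with its second probe. Rpl7a, with means of -0.43 at 10 days and -0.38 at 12 weeks after loess, was at 0.25 and 0.82 after median centring, and Rps12 went from -0.39 to 0.29 at 10 days.

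Other genes of the translation machinery were listed for comparison, and their counts are given after loess. Of 11 elongation and release factors, 9 were higher and 1 lower at 4 weeks and 8 and 1 at 20 weeks, with medians of 0.70 and 0.55; relative to the median ribosomal protein gene they were at 0.08 and -0.03 after loess and at 0.0014 and -0.05 after median centring. Of 32 initiation factors, 21 were higher and 3 lower at 4 weeks (median 0.37), and 16 and 1 at 20 weeks (median 0.16). Of 30 ribosome biogenesis genes, 21 were higher and 0 lower at 4 weeks (median 0.33) and 25 and 0 at 20 weeks (median 0.42). Of all genes, 24.7% were higher and 26.4% lower at 4 weeks after loess, and 23.9% and 25.1% at 20 weeks. After median centring, 3 elongation and release factors were higher and 1 lower at 4 weeks, and 0 and 2 at 20 weeks. Under this scaling 0 initiation factors and 1 biogenesis gene were higher at 4 weeks, and 0 of either at 20 weeks. The shares of all genes higher were then 8.07% and 8.51%.

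Mitochondrial ribosomal proteins serve the ribosome of the mitochondrion. Of 78 measured, 38 were higher and 12 lower at 4 weeks after loess (median 0.14), where 24.7% of all genes were higher and 26.4% lower. At 20 weeks 24 were higher and 19 lower after loess (median 0.05), against 23.9% and 25.1% of all genes. After median centring 1 was higher and 7 lower at 4 weeks (median -0.19), and 0 and 36 at 20 weeks (median -0.49). The shares of all genes after median centring are given with the members' counts above. The mitochondrial median minus that of the cytosolic members was -0.47 at 4 weeks and -0.53 at 20 weeks after loess. It was -0.55 and -0.47 after median centring, and these differences were not tested. At 10 days the difference was 0.09 after loess and 0.13 after median centring. Of 12 genes of RNA polymerase I, 6 were higher and 4 lower at 4 weeks after loess, and 0 and 4 after median centring. Of 14 genes of mTOR and S6 kinase signalling, 5 were higher and 3 lower after loess, and 1 and 4 after median centring.

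**Figure D5:**
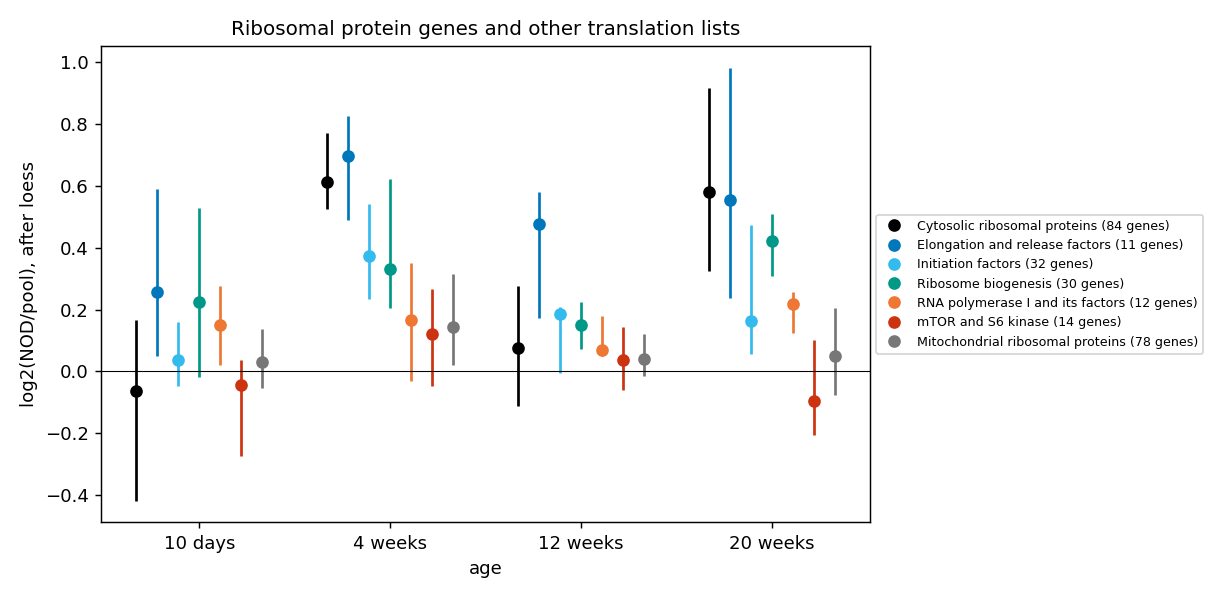
Median log2(NOD/pool) of each list after loess at the 4 ages (points), with the range of the list's median over 6 mice (lines). Cytosolic ribosomal proteins and elongation factors lie highest at 4 and 20 weeks, and mitochondrial ribosomal proteins are at 0.14 and 0.05. After median centring the 20-week medians are -0.02 for cytosolic and -0.49 for mitochondrial ribosomal proteins.

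The islet preparations also differed in cell markers, and in bulk RNA fewer cells of a type cannot be told apart from less RNA per cell. After loess the 8 beta cell markers were higher at 10 days in 8 of 8 (median 1.18) and lower in 5, 4 and 8 at 4, 12 and 20 weeks (medians -0.90, -0.67 and -1.31). The range of the list's median over mice was 0.26 to 2.08 at 10 days and -3.72 to -0.67 at 20 weeks. Of 8 acinar markers 8 were higher at 4 weeks (median 1.47), 2 at 10 days, and 0 at 12 and 20 weeks (medians 0.13 and -0.03). The list's median over mice ran from 1.09 to 1.83 at 4 weeks. The 8 T cell markers were higher in 0, 1, 8 and 8 (medians 0.12, -0.06, 2.44 and 3.04), and the 7 B cell markers in 0, 0, 6 and 7. Macrophage and dendritic markers were higher in 6 of 7 and stellate and fibroblast markers in 6 of 6 at 20 weeks, while the latter were lower in 6 of 6 at 10 days. Other endocrine markers were higher in 4 of 4 at 10 days, duct markers lower in 3 of 5 at 12 weeks and endothelial markers lower in 2 of 4 at 10 days and at 4 weeks. All these marker values are after loess only, and the shares of all genes called are given with the members' counts above. The median bright gene at 12 weeks was at -0.07 after loess and 1.05 after median centring, so directions of bright markers may depend on the scaling. Relative to other bright genes, the median ribosomal protein gene was at -0.11, 0.64, 0.18 and 0.64 (means after loess) at the 4 ages in order. The part of these cell types in the members' ratios was not tested.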

How the data were processed

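Per the file headers, the authors scanned 24 Whole Mouse Genome 2-colour arrays, 300 ng of RNA each per the labels' protocols, and extracted spot intensities with Feature Extraction 10.7.3.1, deposited as mean signal and median local background on a linear intensity scale, with a log10 ratio of red over green after the scanner's dye normalization. The deposited value table of log2 ratios follows that ratio (lowest r 0.9998), with column medians from -0.181 to 0.086. Here intensities were corrected with normexp (offset 50), scaled by loess within arrays with control spots at weight 0, and outlier-flagged spots left out. Spots of a probe were averaged, and 18085 genes were fitted with limma 3.58.1 in R 4.3.3, with 1 mean per age. A call is a Benjamini-Hochberg adjusted p under 0.05 over all genes. The number of arrays limits the precision. In simulated data with independent noise, 17885 of 18085 genes were left unchanged and 50 were given each size of change at 20 weeks. There 46% of changes of 0.3 and 98% of changes of 1 on the log2 scale were called. Far more genes were called in the real data, so these percentages need not hold for them. Members and lists were chosen with earlier results of these data known. The genes named are the 3 highest and 3 lowest members of each age and contrast, a fixed list of stalk, 5S, disease, reference and paralogous members, all on chromosome 17, and those with disagreeing probes. Of the fixed list, Rpl10l and Rpl26l1 are not used here. A few other members and genes of the lists are not reported here. The tract search, the values relative to the brightest 10% and to the median member, and the channel shares were chosen after seeing the data.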

Additional observations from a re-analysis of the deposited data

Results flagged for a closer look

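In 114 groups of 6 mice, 7 had a mouse far from the other 5 by Dixon's test; chance alone gives about 1 in 20. At 10 days replicate 1 had 0.38 for Rpl5, with the other 5 mice at 0.87 to 1.08. At 4 weeks replicate 3 was far out for 4 members: Rps4y2 at -1.37 (others -0.87 to -0.68), Rplp1 at 1.00 (others 0.73 to 0.83), Rps19 at 1.00 (others 0.69 to 0.80) and Rpl13 at 0.75 (others 0.38 to 0.51). At 12 weeks replicate 4 had 0.44 for Rplp2 (others -0.12 to 0.05) and replicate 2 had -0.76 for Rpl32 (others -0.20 to 0.07).

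The ratio to the pool differed between ages for many members after loess, as tested by limma's contrasts. The counts were 75 from 10 days to 4 weeks (50.9% of all genes) and 61 from 4 to 12 weeks (41.5%). From 12 to 20 weeks 48 were called (26.8%), and from 10 days to 20 weeks 69 (53.9%). Named members that were lower at the earlier age and higher at the later one, with a difference of at least 2-fold, were Rpl36a (1.54), Rpl32 (1.13) and Rps12 (1.13) from 10 days to 4 weeks, and Rpl39 (1.26) and Rps23 (1.05) from 12 to 20 weeks. From 10 days to 20 weeks they were Rpl39 (1.53), Rpl36a (1.34), Rps7 (1.31), Rps23 (1.15), Rps27a (1.14), Rpl22l1 (1.13), Rplp2 (1.11), Rps12 (1.07) and Rps27 (1.02), all log2 differences after loess. Median centring turned Rpl39 (-0.55) and Rps23 (-0.83) from 12 to 20 weeks and Rps7 (-0.07) from 10 days to 20 weeks. A difference between ages includes the difference between their pools, and the members' share of signal moved between the pools of the 4 ages by more than between the NOD means.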

How the results depend on the processing

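Median centring in place of loess moved most results. After it 55 members were higher and 1 lower at 10 days (median 0.64), 25 were higher at 4 weeks (0.35), 80 higher and 0 lower at 12 weeks (1.19), and 2 higher and 6 lower at 20 weeks (-0.020). Between ages 2 rose and 9 fell from 10 days to 4 weeks (-0.26), 73 and 1 from 4 to 12 weeks (0.90), 2 and 81 from 12 to 20 weeks (-1.31), and 2 and 41 from 10 days to 20 weeks (-0.66). The shares of all genes called are given with the same counts above. Named members called after loess that changed sign with it were, at 10 days, Rpl36a (0.079), Rplp0 (0.16), Rplp2 (0.056), Rpl32 (0.31), Rps27 (0.44), Rpl7a (0.25) and Rps12 (0.29). At 12 weeks they were Rpl39 (0.59), Rps4y2 (0.56), Rplp0 (0.93), Rpl22l1 (0.44), Rps19bp1 (0.73) and Rpl7a (0.82). At 20 weeks they were Rpl36al (-0.22), Rplp0 (-0.35), Rplp1 (-0.011), Rplp2 (-0.21), Rpl22l1 (-0.38), Rpl19 (-0.14), Rpl32 (-0.24), Rpl11 (-0.17), Rps3 (-0.10), Rpl13 (-0.15), Rpl7 (-0.10) and Rpl7a (-0.42). Members not called after loess that changed sign were Rplp1 (0.38), Rps4y2 (0.54) and Rps18 (0.67) at 10 days, Rplp1 (1.07), Rpl32 (1.02), Rpl36a (1.11) and Rps18 (1.13) at 12 weeks, Rpl13 (0.49 and 1.07) at both, and Rpl22l1 (-0.26) at 4 weeks. Among contrasts called after loess those that changed sign were Rpl36a (0.46), Rplp1 (0.45) and Rpl32 (0.47) from 4 to 12 weeks, Rpl39 (-0.55), Rps23 (-0.83) and Rps7 (-0.77) from 12 to 20 weeks, and Rps7 (-0.066) from 10 days to 20 weeks. The scanner's ratio and the deposited table each gave 3 lower members and a median of 0.44 at 4 weeks, with Rplp2 at -0.18, and 39 falling from 4 to 12 weeks; they gave 3 and 5 rising there and 6 and 7 falling from 12 to 20 weeks. No background correction, and leaving out 20 weeks replicates 5 and 6 together, an alternative chosen after seeing the data, each gave 1 rising from 4 to 12 weeks. The mean of all kept probes gave 1 lower member at 20 weeks and Rplp0 at 0.089 at 12 weeks. Slide as a fixed block gave 0 falling from 10 days to 4 weeks, and 10 rising and 0 falling from 12 to 20 weeks. Leaving out replicate 5 or 6 of 20 weeks gave 0 to 0 falling from 12 to 20 weeks and 73 to 75 higher at 20 weeks. The cause of these changes was not tested. With the replicate number as a block, 76 members were higher at 20 weeks and 70 rose from 10 days to 4 weeks, and none of the counts moved by over 1.5 times; the numbers do not pair the mice, since same-numbered arrays of different ages had a median correlation of -0.10 and 5 of 24 arrays correlated best with their own number. Of 125 named values, 32 that were called after loess changed sign under median centring and 3 under another alternative. Leaving out other mice was not run. Among the probes that stand for the members, signal limits only the dimmest, those of Rpl39l and Rpl3l.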
